A study of Mus musculus with 6 samples.

Results

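The genes described here are 10 neuronal RNA-binding and splicing regulators, chosen by symbol from 4 families: Ptbp1 and Ptbp2, Nova1 and Nova2, Rbfox1, Rbfox2 and Rbfox3, and Elavl2, Elavl3 and Elavl4. All 10 were found among the 49315 genes of the count table, and all 10 passed the filter on low counts. They were measured by RNA sequencing of the medial ganglionic eminence (MGE), the zone of the ventral forebrain where many cortical interneurons are born, in mouse embryos at embryonic day 14. The 3 KO libraries came from Nkx2.1-Cre; Prdm16fl/fl; Ai14 embryos and the 3 WT libraries from Nkx2.1-Cre; Prdm16+/+; Ai14 embryos, and each library was 1 pool of 3 embryos (6 eminences). Both groups thus carried the Cre driver, which acts in cells of the Nkx2.1 lineage, and the Ai14 reporter of recombination. By genotype they differed in Prdm16, which encodes a transcriptional regulator made in neural progenitors. Cells of the dissected tissue outside the Nkx2.1 lineage kept the gene in both groups. The comparison asks which transcripts differ when the floxed allele is homozygous.

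These proteins shape the RNA of developing neurons after transcription. Ptbp1 is made in progenitors and non-neural cells, where it represses neuronal exons. Its paralog Ptbp2 takes over as cells become neurons, because Ptbp1 makes the Ptbp2 transcript skip an exon, and the shortened transcript is degraded. Nova and Rbfox proteins bind short motifs in introns and direct neuron-type exon use, and Elavl proteins, the neuronal Hu family, bind U-rich and AU-rich stretches and act on both splicing and mRNA stability.

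The RNA features behind this switch are shown because gene counts cannot see them. In the principal transcripts of GENCODE M21 (GRCm38), Ptbp1 and Ptbp2 each had 1 exon of 34 bases, exon 10 of 14 in both. It lies at chr10:79862014-79862047 on the + strand in Ptbp1 and at chr3:119724612-119724645 on the - strand in Ptbp2. The exons are written 5′ to 3′, with capitals at the bases the paralogs share.
Ptbp1: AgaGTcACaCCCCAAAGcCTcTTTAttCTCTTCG
Ptbp2: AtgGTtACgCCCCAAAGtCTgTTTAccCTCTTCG
The paralogs were identical at 26 of 34 bases (76.5%). For each gene, 2 annotated transcripts that run across the exon's place without it are classed as targets of nonsense-mediated decay. The values below add up reads of all transcripts of a gene, so exon use was not measured.

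A second link runs through miR-124, a neuronal microRNA known to repress Ptbp1. The 7 bases GTGCCTT, which pair with its seed, were searched on the transcript strand of the 3′ UTR of the principal transcripts. Ptbp1 held 1 match and Ptbp2 held 2, and the 7 other members with an annotated UTR in these transcripts held 0. Among UTRs at least as long as that of Ptbp1 (1155 bases), 11.4% had a match within the same length, and the share was 15.1% for the length of the Ptbp2 UTR (1586 bases). The matches stand in capitals in their surroundings of 29 bases. They lie at chr10:79863521-79863549 (+ strand), chr3:119720058-119720086 and chr3:119719317-119719345 (- strand).
Ptbp1: agccgctttctGTGCCTTacaaaccagcg
Ptbp2, first match: agttgacatacGTGCCTTacaaaggaaaa
Ptbp2, second match: ccaaagtttatGTGCCTTtagtcttaatt
A match is a description of the sequence and not a test of binding.

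Total counts per library ran from 36517047 to 55552298 in KO and from 33188277 to 46301483 in WT. On the first principal component across all tested genes (55.9% of the variance), KO 1 lay nearer to WT than the other KO libraries. Its value was -15.91, against -35.44 and -37.18 in KO 2 and KO 3 and 28.27 to 30.96 in WT. KO 1 also stood apart from the other KO libraries on the second component (34.99, against -11.58 and -12.4), which held 16.1% of the variance. It had 1.92 CPM (reads scaled to a common library size) of Xist and 239 CPM of 4 Y-linked genes, whereas KO 3 had 1424 CPM of Xist and 0.362 CPM of the Y-linked genes, and KO 2 and the WT pools had reads of both. Prdm16 averaged 50.2 ± 4.02 CPM in KO and 49.4 ± 5.55 CPM in WT (SD, n = 3 each), with a log2 fold change of 0.02 (edgeR adjusted p = 0.884). The floxed exons were not given in the sources used here, and whole-gene counts could not check the label. The MGE transcription factors Nkx2-1 and Lhx6 were present in each library, at 636.9 to 861 CPM and 472 to 521 CPM in KO and at 615 to 674 CPM and 621 to 683 CPM in WT.

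Of the 10 regulators, Rbfox1, Rbfox2 and Elavl2 fell in KO, none rose, and 7 did not pass. An edgeR quasi-likelihood test across 18079 genes was used, with a Benjamini-Hochberg adjusted p under 0.05 as the threshold. By that threshold 20.2% of all tested genes differed (9.72% higher and 10.5% lower in KO). The regulators' share of 30% was not tested against that background, and with 10 genes it rests on 3 calls. The median log2 fold change of the regulators was -0.11, against -0.002 over all tested genes. In 5 regulators the KO libraries lay wholly above (1) or wholly below (4) the WT libraries, a pattern seen in 39.9% of all tested genes (20.3% above and 19.6% below). The summed level of the 10 genes was 2503 to 2620 CPM in KO and 2709 to 2781 CPM in WT. Abundant genes weigh most in this sum, and Rbfox2 alone averaged 489 ± 65.2 CPM in KO and 612 ± 8.39 CPM in WT. The log2 fold change was above 0 in 3 regulators and below 0 in 7. The calls depended on the libraries. Without KO 1, 6 regulators passed, with Rbfox1, Rbfox2, Elavl2, Elavl4 and Nova2 lower and Ptbp2 higher, where 41.5% of all genes passed (20.6% higher and 20.9% lower). Rbfox1 alone passed without KO 2, KO 3, WT 1 or WT 2 (7.29%, 7.62%, 10.8% and 6.49% of all genes), and no regulator passed without WT 3 (6.4%). The same 3 regulators passed under the other scalings (20.2%, 20.4% and 20% of all genes), a stricter filter (23.8%), DESeq2 (23.3%), limma voom (19.2%) and a spread estimate that is not robust (19.6%). With no filter 2 passed (13.7%), and with the replicate number as a block 1 did (11.5%). In whole pieces of tissue, fewer cells of a type and less RNA per cell cannot be told apart.

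**Figure D1:**
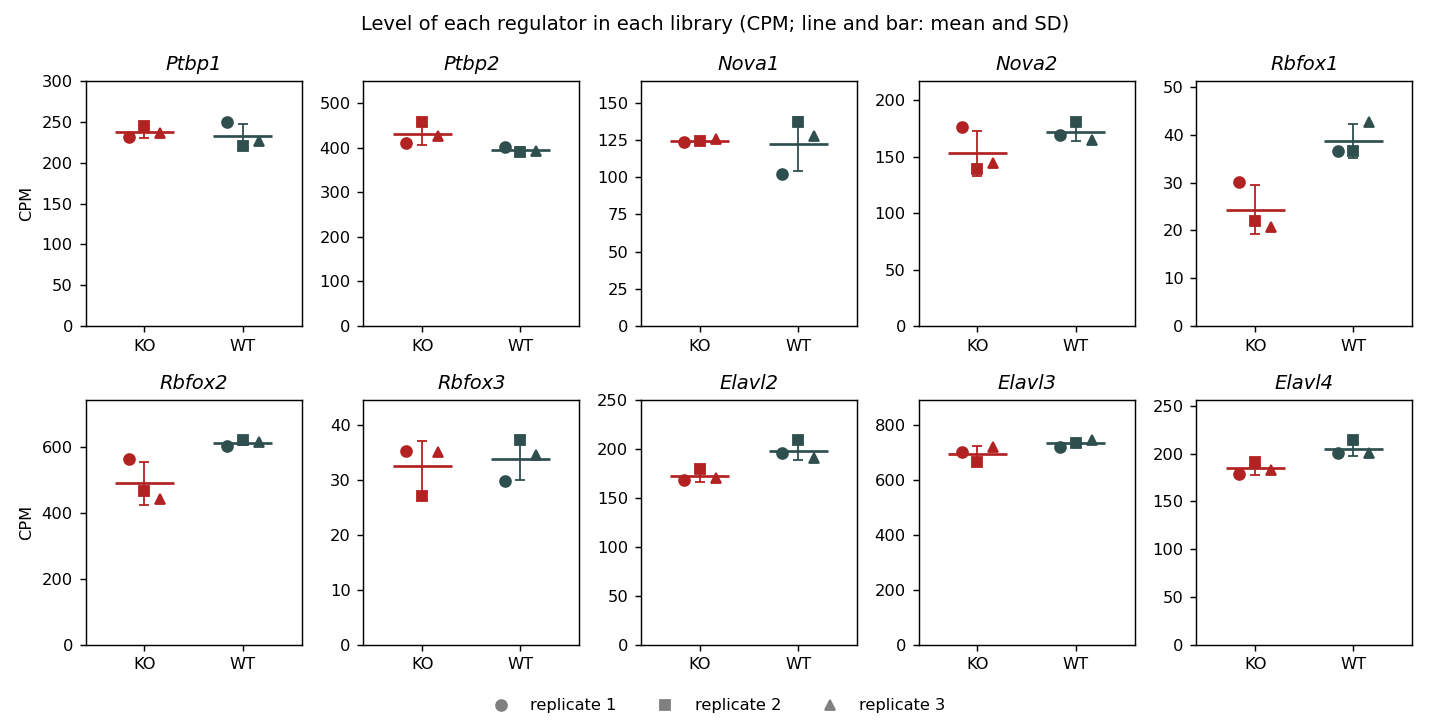
CPM of each of the 10 regulators in the 3 KO and the 3 WT libraries; symbols mark the replicate numbers, and lines with bars show the mean and SD. Rbfox1, Rbfox2, Elavl2 and Elavl4 have all KO points below all WT points, and Ptbp2 has all KO points above, while the other 5 genes overlap.

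Ptbp1 (ENSMUSG00000006498, chr10:79854427-79864771) is the repressor of neuronal exons in progenitors. It had 232, 246 and 237 CPM in KO 1 to 3, and 250.4, 221 and 228 CPM in WT 1 to 3. The groups overlapped, and the WT libraries spread more widely than the KO libraries. Its log2 fold change of 0.03, with an SE of 0.06, did not pass (edgeR adjusted p = 0.768), and the 95% interval of the fold ran from 0.927 to 1.12. Its exons overlap those of 3 genes on the other strand. Gm17134 (437 shared bases) had no reads in any library, E130317F20Rik (295 bases) averaged 9.66 CPM in KO and 11 CPM in WT, and Plppr3 (251 bases) averaged 470 ± 41 CPM in KO and 463 ± 4.41 CPM in WT (SD, n = 3 each). The counting's strand setting and its treatment of reads shared by paralogs were not given in the sources used here. The lack of Gm17134 reads thus does not show whether reads over the shared bases were counted for Ptbp1.

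Ptbp2 (ENSMUSG00000028134, chr3:119718742-119784466) encodes the neuronal paralog. It had 410, 458 and 426 CPM in KO 1 to 3, and 402, 391 and 392 CPM in WT 1 to 3. Each KO library lay above each WT library, and KO 1 was the closest to WT. The log2 fold change of 0.13 (SE 0.06) did not pass (edgeR adjusted p = 0.165), and the interval of the fold ran from 0.993 to 1.2. Without KO 1 it was 0.17 and passed (edgeR adjusted p = 0.0106). Ptbp3, a more widely expressed relative, averaged 32.9 ± 2.25 CPM in KO and 35.9 ± 2.13 CPM in WT and did not pass (log2 fold change -0.13, edgeR adjusted p = 0.243), but passed as lower without KO 1 (log2 fold change -0.18, edgeR adjusted p = 0.0411).

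The balance of the pair was taken within each library, as reads per kilobase of exonic length, so that no scaling between libraries enters. The ratio of Ptbp2 to Ptbp1 was 0.914, 0.964 and 0.931 in KO 1 to 3, and 0.83, 0.913 and 0.891 in WT 1 to 3. KO 1 and WT 2 were nearly equal, and the groups were separated only by that narrow gap. The ratio was 1.07-fold higher in KO (p = 0.1 by a two-sided exact permutation test, which cannot go lower with 3 libraries against 3, and adjusted p = 0.337 over 9 measures of paralog balance). Both genes were thus present at similar levels per length in this tissue. In KO, Ptbp1 had 50.2 ± 1.49 RPKM (CPM per kilobase) and Ptbp2 had 47 ± 2.68 RPKM. In WT, they had 49.2 ± 3.23 RPKM and 43.1 ± 0.654 RPKM. This similarity rests on the annotated exonic length, 4.74 kb for Ptbp1 and 9.175 kb for Ptbp2, and in CPM Ptbp2 was higher in each library.

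Rbfox1 (ENSMUSG00000008658, chr16:5885355-7411526), a splicing factor that binds the RNA motif UGCAUG and is found in neurons, heart and muscle, showed the largest fold change of the 10. It had 30.2, 22 and 20.8 CPM in KO 1 to 3, and 36.7, 36.6 and 42.7 CPM in WT 1 to 3. All KO libraries were below all WT libraries, and KO 1 was the closest to WT. The gene was 1.59-fold lower in KO (log2 fold change of -0.67 with an SE of 0.135, edgeR adjusted p = 0.0119). Without KO 1 the log2 fold change was -0.85 (edgeR adjusted p = 5.03e-06), and without WT 3 it was -0.59 and missed the threshold narrowly (edgeR adjusted p = 0.0509).

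Rbfox2 (ENSMUSG00000033565, chr15:77078990-77307004) is the most widely expressed member of this family and is also made outside the nervous system. It had 563, 464 and 440.2 CPM in KO 1 to 3, and 603, 619 and 615 CPM in WT 1 to 3. The WT libraries lay close together, while KO 1 lay nearer to them than KO 2 and KO 3 did. Rbfox2 was 1.25-fold lower in KO (log2 fold change of -0.32 with an SE of 0.09, edgeR adjusted p = 0.0324). The call was lost without KO 2 (edgeR adjusted p = 0.128), KO 3 (0.112), WT 1 (0.0799), WT 2 (0.113) or WT 3 (0.104), with log2 fold changes between -0.25 and -0.33, and without KO 1 the log2 fold change was -0.43 (edgeR adjusted p = 1.15e-05).

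Rbfox3 (ENSMUSG00000025576, chr11:118489762-118911597) encodes the NeuN antigen, a marker of maturing neurons. It had 35.3, 27.2 and 35.2 CPM in KO 1 to 3, and 29.8, 37.3 and 34.6 CPM in WT 1 to 3. The ranges overlapped in part, and KO 2 lay below each WT library. It did not pass (log2 fold change of -0.05 with an SE of 0.11, edgeR adjusted p = 0.763), with an interval of the fold from 0.806 to 1.15. Within the family, Rbfox1 made up 8.36%, 7.51% and 7.27% of the summed reads per kilobase in KO 1 to 3, and 9.53%, 9.16% and 10.6% in WT 1 to 3. The groups did not overlap (difference -2.06 percentage points, exact two-sided permutation p = 0.1, adjusted p = 0.337). Rbfox2 was the bulk of the family in each library (84.4 ± 1.05% in KO and 83.7 ± 0.894% in WT), and the share of Rbfox3 was 7.91 ± 1.25% in KO and 6.48 ± 0.604% in WT (exact two-sided permutation p = 0.5 and 0.2, n = 3 each).

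**Figure D2:**
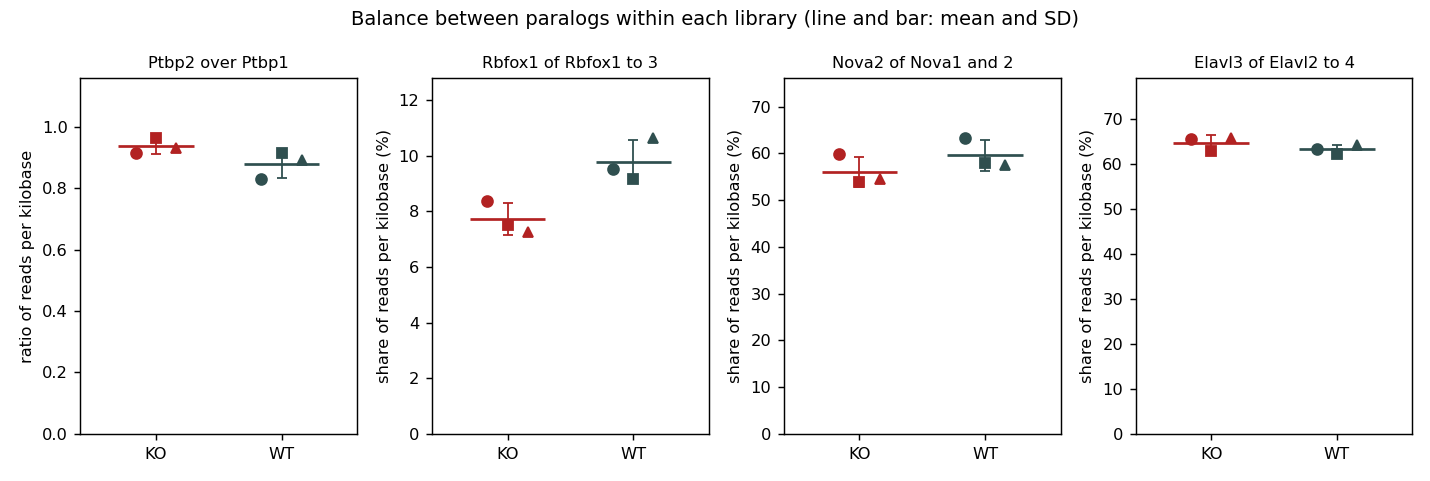
Ratio of Ptbp2 to Ptbp1 (first panel) and the share of 1 member in the summed reads per kilobase of its family (other panels, in percent), per library, with the mean and SD; symbols mark replicates 1 (circle), 2 (square) and 3 (triangle). The ratio and the Rbfox1 share do not overlap between KO and WT, and the Nova2 and Elavl3 shares do.

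Nova1 (ENSMUSG00000021047, chr12:46694517-46818929) and Nova2 (ENSMUSG00000030411, chr7:18925888-18965319) encode neuron-restricted splicing factors first known as autoantigens in a motor disorder linked to tumours. Nova1 had 124, 124 and 125 CPM in KO 1 to 3, and 102, 137 and 128 CPM in WT 1 to 3. The KO libraries were almost equal and lay inside the WT range. Nova1 did not pass (log2 fold change of 0.03 with an SE of 0.09, edgeR adjusted p = 0.872), with an interval of the fold from 0.88 to 1.18. Its exons share 310 bases (3.54% of their length) with Gm33869 on the same strand. Nova2, the main form in the embryonic cortex, had 176, 139 and 144 CPM in KO 1 to 3, and 169, 181 and 165 CPM in WT 1 to 3. KO 1 lay inside the WT range, whereas KO 2 and KO 3 lay below it. Nova2 did not pass (log2 fold change of -0.16 with an SE of 0.09, edgeR adjusted p = 0.201, interval of the fold from 0.779 to 1.02), but it did without KO 1 (-0.27, edgeR adjusted p = 0.000816). The share of Nova2 in the pair was 56.1 ± 3.22% in KO and 59.6 ± 3.27% in WT (exact two-sided permutation p = 0.3, n = 3 each). An unstranded count would also touch Gm26821, a noncoding RNA on the other strand that overlaps 31.7% of the Nova2 exons. Gm26821 had no reads in any library, but this does not show whether reads over the shared bases were counted for Nova2.

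Elavl2 (ENSMUSG00000008489, chr4:91250763-91400785), which encodes HuB, had 168, 180 and 170 CPM in KO 1 to 3, and 195, 209 and 191 CPM in WT 1 to 3. The groups did not overlap. Elavl2 was 1.15-fold lower in KO (log2 fold change of -0.20 with an SE of 0.06, edgeR adjusted p = 0.0375). The call held without KO 1 (edgeR adjusted p = 0.0125) and was lost without KO 2 (0.0738), KO 3 (0.126), WT 1 (0.084), WT 2 (0.171) or WT 3 (0.0831), with log2 fold changes between -0.16 and -0.23.

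Elavl4 (ENSMUSG00000028546, chr4:110203722-110351909), which encodes HuD, a stabilizer of neuronal mRNAs such as that of Gap43, had 179, 192 and 183 CPM in KO 1 to 3, and 200.3, 214 and 200.7 CPM in WT 1 to 3. The groups did not overlap, but the log2 fold change of -0.15 (SE 0.06) did not pass (edgeR adjusted p = 0.0813), and without KO 1 it was -0.13 and passed (edgeR adjusted p = 0.0489). Elavl3 (ENSMUSG00000003410, chr9:22015005-22052023), which encodes HuC, a pan-neuronal marker in zebrafish, had 703, 665 and 722 CPM in KO 1 to 3, and 721, 735 and 745 CPM in WT 1 to 3. KO 3 lay just above WT 1, so the groups overlapped. Elavl3 did not pass (log2 fold change of -0.075 with an SE of 0.06, edgeR adjusted p = 0.398), with an interval of the fold from 0.865 to 1.04. Its exons share 256 bases (3.72% of their length) with Gm49318, a protein-coding gene on the same strand. Elavl1, the ubiquitous relative HuR, averaged 131 ± 10.3 CPM in KO and 123 ± 6.92 CPM in WT and did not pass (log2 fold change 0.10, edgeR adjusted p = 0.347), but passed as higher without KO 1 (0.17, edgeR adjusted p = 0.0208). Of the summed reads per kilobase of the 3 neuronal Elavl genes, Elavl3 gave 64.7 ± 1.7% in KO and 63.3 ± 1.02% in WT, Elavl4 gave 22 ± 1.03% in KO and 22.6 ± 0.521% in WT, and Elavl2 gave 13.3 ± 0.673% in KO and 14.2 ± 0.506% in WT. Each of these shares overlapped between the groups (exact two-sided permutation p between 0.2 and 0.3, n = 3 each).

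**Figure D3:**
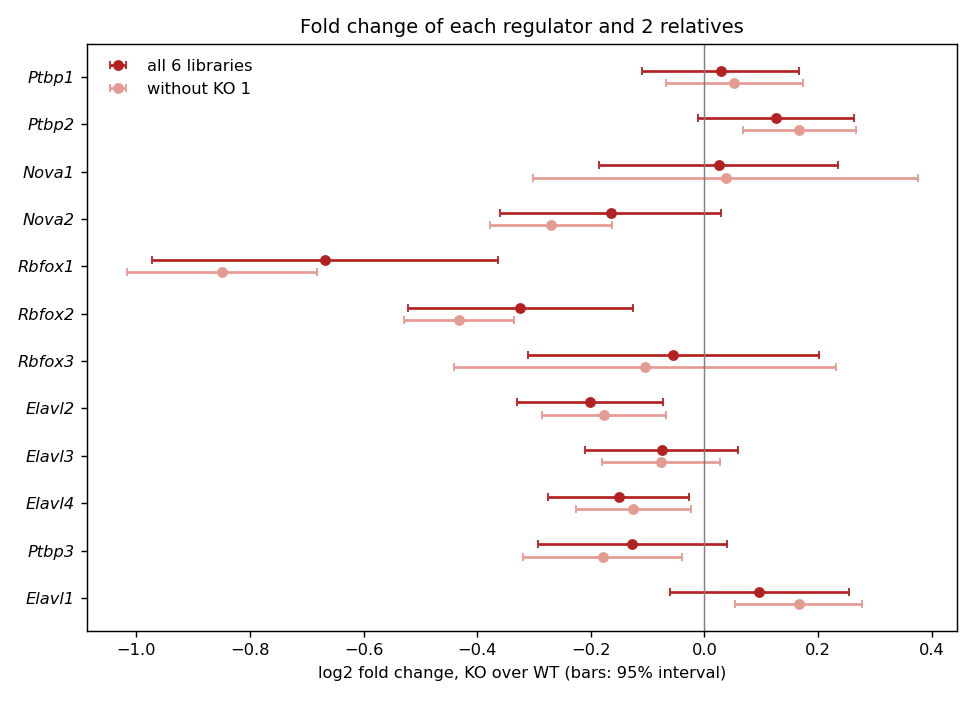
Log2 fold change, KO over WT, with the 95% interval from edgeR for the 10 regulators and their relatives Ptbp3 and Elavl1, from all 6 libraries (dark) and without KO 1 (light). With all libraries the point estimates run from -0.67 for Rbfox1 to 0.13 for Ptbp2.

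Set per kilobase of exonic length, the regulators spanned a wide range of levels in the same tissue. Elavl3 was the highest, at 96.5 to 105 RPKM in KO and 105 to 108 RPKM in WT, followed by Rbfox2 at 54.1 to 69.2 RPKM in KO and 74 to 76 RPKM in WT. Ptbp1 and Ptbp2 came next. Their ranges overlapped in KO (48.9 to 51.8 RPKM and 44.7 to 49.95 RPKM) but not in WT, where Ptbp1 was higher (46.7 to 52.8 RPKM and 42.7 to 43.8 RPKM). Elavl4 (33.3 to 35.6 RPKM in KO and 37.2 to 39.7 RPKM in WT) stood apart from its neighbours in this order. Elavl2 and Nova2 overlapped in KO (20.2 to 21.6 RPKM and 16.6 to 21 RPKM) but not in WT (22.9 to 25.1 RPKM and 19.7 to 21.6 RPKM), and Nova1 was at 14.1 to 14.3 RPKM in KO and 11.7 to 15.7 RPKM in WT. Rbfox1 (4.72 to 6.86 RPKM in KO and 8.31 to 9.71 RPKM in WT) and Rbfox3 (4.67 to 6.06 RPKM in KO and 5.12 to 6.41 RPKM in WT) were the lowest. They overlapped in KO, whereas in WT Rbfox1 lay wholly above Rbfox3. The exonic length joins all annotated exons of a gene, so genes with many rare exons are set too low on this scale.

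Among listed genes known to act with or under the Ptbp proteins, Mir124-2hg rose and 8 did not pass, where 20.2% of all tested genes were called. Mir124-2hg, a host transcript of miR-124, had 111, 117 and 110 CPM in KO 1 to 3, and 79, 74.3 and 81.6 CPM in WT 1 to 3, with no overlap. It was 1.44-fold higher in KO (log2 fold change of 0.53 with an SE of 0.06, edgeR adjusted p = 0.000501). Mir124a-1hg, the host of another copy of this microRNA, was named after its values were seen. It averaged 399 ± 25.9 CPM in KO and 422 ± 15.9 CPM in WT and did not pass (log2 fold change -0.08, edgeR adjusted p = 0.417), and the mature microRNA was not measured. Hnrnpl, a splicing repressor (log2 fold change 0.17, edgeR adjusted p = 0.0808), and Raver2, a Ptbp corepressor (-0.26, edgeR adjusted p = 0.0811), did not pass. Rest, the repressor of neuronal genes outside neurons, was also named after its values were seen and had 23.5 ± 0.204 CPM in KO and 22.6 ± 0.598 CPM in WT (edgeR adjusted p = 0.575). Mir124-2hg passed with each library left out in turn.

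Among 21 other tissue-regulated RNA-binding factors, 19 were tested. Of these, 4 rose, 2 fell and 13 did not pass (31.6% called, against 20.2% of all tested genes). The members that rose were Khdrbs3, Rbm38, Rbm24 and Msi1, and the 2 that fell, Celf2 and Mbnl1, were named after their values were seen. Khdrbs3, which encodes the splicing factor SLM2, was 1.38-fold higher (133 ± 9.25 CPM in KO and 95.8 ± 5.47 CPM in WT, edgeR adjusted p = 0.00245). Rbm38 and Rbm24, related splicing and stability factors, were 1.36-fold and 1.47-fold higher (edgeR adjusted p = 0.00783 and 0.00855). Msi1, which encodes Musashi of neural progenitors, was 1.19-fold higher (341 ± 18.4 CPM in KO and 287 ± 9.06 CPM in WT, edgeR adjusted p = 0.023). Celf2 and Mbnl1, splicing factors of developing brain and muscle, had log2 fold changes of -0.23 and -0.27 (edgeR adjusted p = 0.0342 and 0.0411). Srrm4, the activator of neuronal microexons, was named after its values were seen. It averaged 133 ± 9.85 CPM in KO and 141 ± 4.21 CPM in WT and did not pass (edgeR adjusted p = 0.354). Without KO 1, 6 of the 19 rose and 5 fell, and without each other library 3 or 4 rose and none fell. The share of all tested genes that passed was 41.5% without KO 1 and 6.4% to 10.8% without each other library.

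Among general splicing factors, some genes rose and none fell, where 20.2% of all tested genes were called (9.72% higher and 10.5% lower in KO). Of 13 SR proteins, activators of exon use, 1 rose (7.69%), namely Srsf9 at 1.27-fold (edgeR adjusted p = 0.0265), and the list median was 0.16. Srsf2, Srsf5 and Srsf7 had log2 fold changes of 0.25, 0.18 and 0.21 and did not pass (edgeR adjusted p from 0.0673 to 0.0727). Without KO 1, 11 SR genes rose and 1 fell, and without any other single library 0 passed. Of all tested genes, 41.5% passed without KO 1 (20.6% higher in KO) and 6.4% to 10.8% without each other library. Of 23 hnRNP genes, the family that includes many splicing repressors, 8 rose, none fell and 15 did not pass (34.8%), with a median of 0.17. Pcbp4 was 1.22-fold higher (444 ± 24.4 CPM in KO and 363 ± 6.73 CPM in WT, edgeR adjusted p = 0.0126), and Hnrnpf, Hnrnpdl and Hnrnpd were 1.22-fold, 1.16-fold and 1.25-fold higher (edgeR adjusted p from 0.027 to 0.0341). Without KO 1, 16 of the 23 rose, and without each other library 0 to 2 did. DESeq2 called 5 of the SR genes and 12 of the hnRNP genes, all higher, where it called 23.3% of all tested genes.

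**Figure D4:**
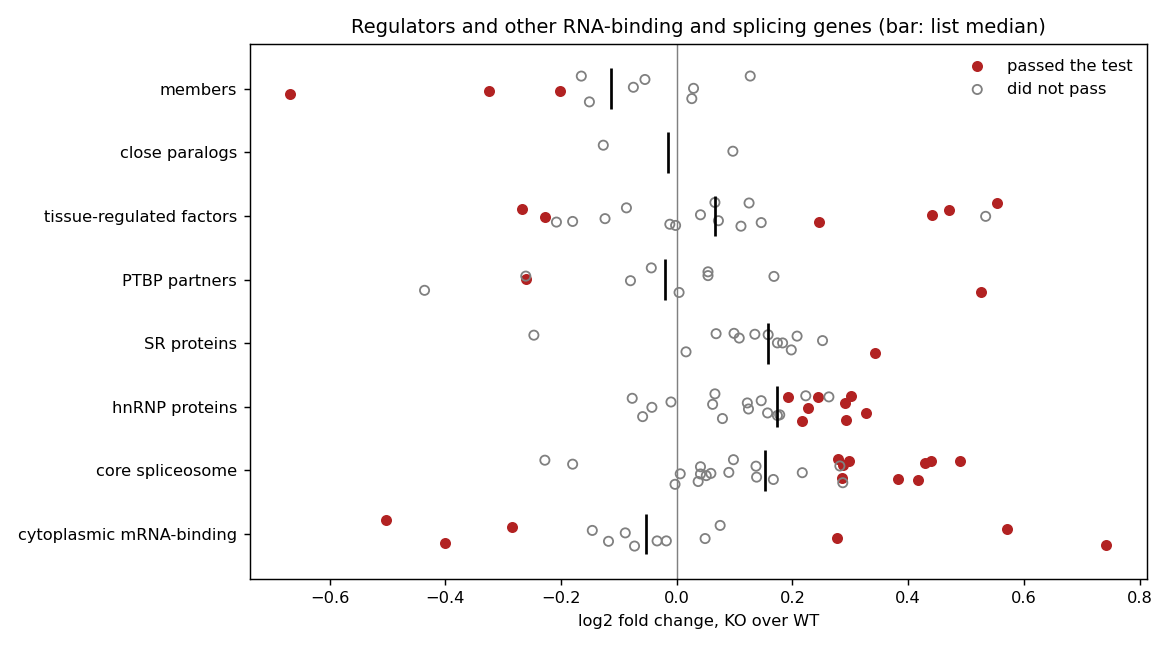
Log2 fold change, KO over WT, of each tested gene in the 10 regulators (top row, members) and in the lists of related RNA-binding and splicing genes; filled points passed edgeR at an adjusted p under 0.05, and black bars are list medians. The medians run from -0.11 for the regulators to 0.17 for the hnRNP genes.

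Markers of the cell types in the dissected tissue were counted beside these values. Of all tested genes, 20.2% were called, 41.5% without KO 1 and 6.4% to 10.8% without each other library. Of 12 radial glia genes 10 rose, 1 fell and 1 did not pass (91.7% called). Their summed level was 3403 to 3880 CPM in KO and 2451 to 2564 CPM in WT. Nes rose 1.59-fold, Sox9 1.55-fold and Ednrb 1.49-fold (edgeR adjusted p from 0.00021 to 0.00047). Of 12 genes of postmitotic neurons 2 fell, 1 rose and 9 did not pass (25% called, near the share of all tested genes). The summed level of this list was 5605 to 5994 CPM in KO and 5870 to 6267 CPM in WT. Dcx, a microtubule protein gene of migrating neurons, had 926, 750.3 and 699 CPM in KO 1 to 3, and 1069, 1104 and 1061 CPM in WT 1 to 3. As with Rbfox1, Rbfox2 and Nova2, KO 1 was the KO library nearest to WT. In Elavl2 and Elavl4, whose KO libraries also lay below WT, KO 1 was instead the farthest from WT (168 and 179 CPM). Snap25 was 1.25-fold lower and Ina 1.26-fold higher (edgeR adjusted p = 0.00854 and 0.0293). Neither had the library order of Dcx. In Snap25, KO 3 was the nearest to WT (48.7, 47.8 and 51 CPM in KO 1 to 3, and 58.1 to 64.4 CPM in WT). In Ina, KO 1 was the farthest from WT (636, 551 and 610 CPM in KO 1 to 3, and 414 to 506 CPM in WT). Without KO 1, 2 of these neuron genes rose and 3 fell, and without each of the other libraries 0 or 1 rose and 0 to 2 fell.

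Regional markers differed as well. The share of all tested genes called was again 20.2%, or 41.5% without KO 1 and 6.4% to 10.8% without each other library. Of 11 genes marking the neighbouring lateral and caudal eminences 7 fell and 1 rose (summed level 785 to 889 CPM in KO and 847 to 979 CPM in WT). The genes that fell were led by Ikzf1, Penk and Rarb, which were 4.03-fold, 2.62-fold and 3.59-fold lower. Nr2f2 rose 1.96-fold (edgeR adjusted p = 0.0154) but did not pass without KO 1 (edgeR adjusted p = 0.087). Sp8, Prox1 and Isl1 had log2 fold changes of 0.17, 0.165 and -0.11 and did not pass. The list joins genes of both eminences, so its counts do not describe either eminence alone. Of 10 genes of MGE identity 4 fell, 1 rose and 5 did not pass (4023 to 4572 CPM in KO and 4588 to 4895 CPM in WT), with Gad1 and Lhx6 1.29-fold and 1.3-fold lower and Lhx8 1.41-fold higher. Without KO 1, 5 genes of MGE identity fell and 3 rose, and without each other library 2 or 3 fell and 0 or 1 rose, while 4 to 7 genes of the lateral and caudal list fell with each library left out in turn. Of 7 genes of cortical excitatory neurons 4 rose (60.2 to 86.1 CPM in KO and 27 to 56.9 CPM in WT), but 2 did without KO 1 or WT 2, 3 without KO 2, 1 without KO 3 or WT 1 and 0 without WT 3. Of 6 endothelial genes 1 fell (16.7% called), with a summed level of 131 to 159 CPM in KO and 173 to 174 CPM in WT. Of 5 pericyte genes 5 fell (67.6 to 96.9 CPM in KO and 110 to 112 CPM in WT). Of 6 microglial genes 2 fell (33.3% called), with 26.8 to 32.4 CPM in KO and 34.8 to 36.4 CPM in WT. The pericyte and microglial calls rested on the choice of libraries. The endothelial gene that fell, Cldn5, passed under each of 15 alternatives, with log2 fold changes from -0.734 to -0.636. Without KO 1, 5 endothelial, 5 pericyte and 2 microglial genes fell. Without each other library 1 endothelial gene fell and no microglial gene did, and no pericyte gene fell apart from 1 without WT 1.

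Red cell genes differed by globin type. Of 8 such genes 3 rose, 2 fell and 3 did not pass (62.5% called, against 20.2% of all tested genes). Their summed level was 996 to 1595 CPM in KO and 658 to 719.9 CPM in WT. Hba-x, an embryonic alpha-type globin gene, had 104, 148 and 167 CPM in KO 1 to 3, and 17.6, 14.1 and 22.2 CPM in WT 1 to 3, and was 7.76-fold higher (edgeR adjusted p = 0.000663). The other genes that rose, Hbb-y (6.12-fold, edgeR adjusted p = 0.000736) and Hbb-bh1 (25.5-fold, edgeR adjusted p = 0.00417), are embryonic beta-type globin genes and were named after their values were seen. The adult beta-globin genes fell, Hbb-bs by a fold of 2.91 (72.1 ± 14.2 CPM in KO and 209.9 ± 1.43 CPM in WT) and Hbb-bt by a fold of 1.83 (41.4 ± 2.13 CPM in KO and 75.7 ± 0.623 CPM in WT), with edgeR adjusted p of 0.000111 and 4.04e-05. With each library left out, 3 red cell genes rose and 2 fell, except without KO 1, where 5 rose and 2 fell. All tested genes passed at 41.5% without KO 1 and at 6.4% to 10.8% without each other library. Globin genes are close paralogs, and reads shared between them could be split by the counting. No marker was at 0 in all 6 libraries. The part of these cell types in the values of the regulators was not tested. Any difference between the groups in embryo stage or litter could not be told apart from genotype here. The part of the pools' make-up by sex (Xist and Y-linked genes) was not tested.

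**Figure D5:**
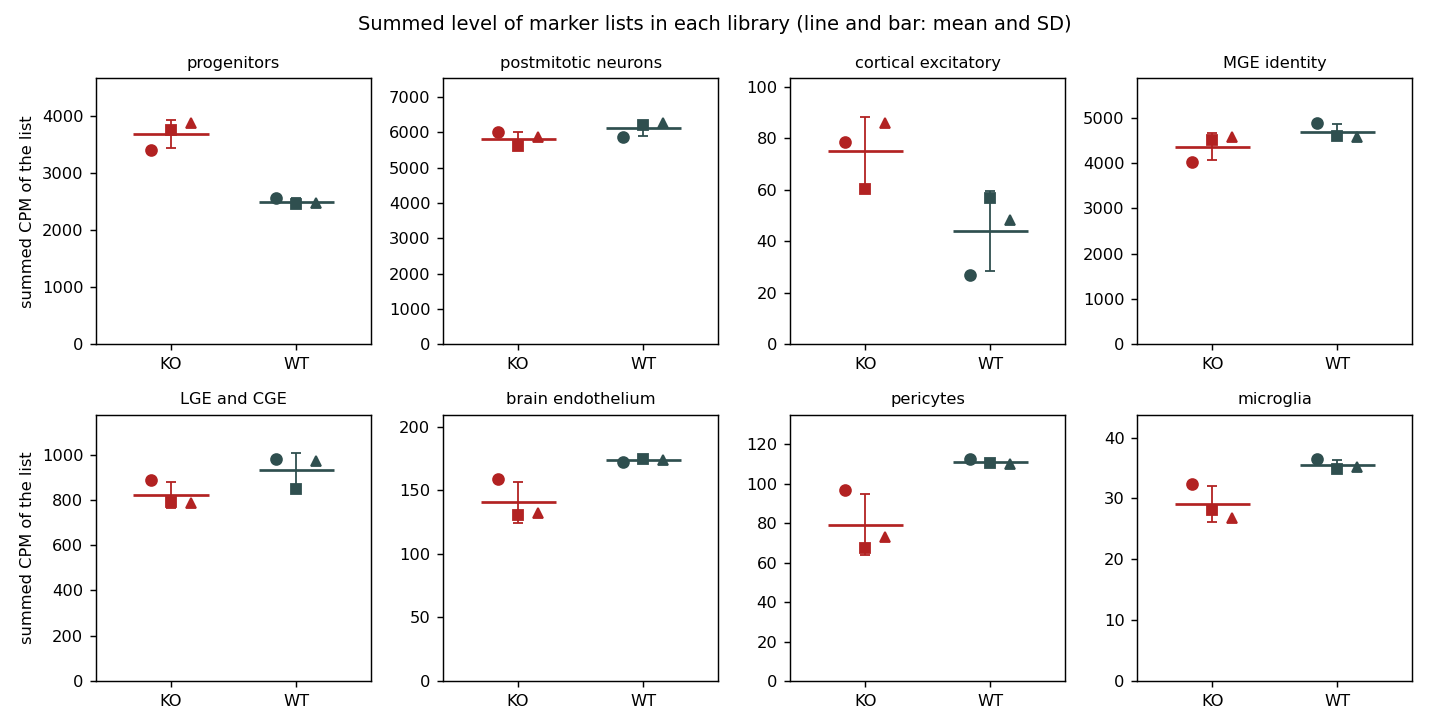
Summed CPM of 8 marker lists in each library, with the mean and SD over the 3 KO and the 3 WT libraries; symbols mark replicates 1 (circle), 2 (square) and 3 (triangle). Radial glia genes are higher in each KO library, at 3403 to 3880 CPM against 2451 to 2564 CPM, and the summed neuron genes overlap between the groups.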

How the data were processed

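The submitters' processing notes name Trimmomatic 0.36, STAR 2.5.2b, Subread 1.5.2 with featureCounts, DESeq2 and the build GRCm38. The gene annotation and strandedness of the counting were not given in the sources used here. What the authors deposited and what was tested here is a table of raw counts for each Ensembl gene; a second, normalized table was not used.

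Group and replicate of each library were taken from its label, and p-values measure the spread between pools. Symbols, positions and exonic lengths came from GENCODE M21, which held 49056 of the 49315 gene IDs (Qki as Qk). After filterByExpr with a minimum count of 10 and a minimum total of 15, counts were scaled by TMM and tested with robust quasi-likelihood in edgeR 4.0.16 (R 4.3.3), adjusted by Benjamini-Hochberg at 0.05. The code was checked on simulated counts. Standard errors are the log2 fold change over the square root of F. CPM use TMM library sizes, and RPKM divide CPM by exonic kilobases.

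The members and lists were chosen with earlier results of these data known. Named genes were the members, Prdm16, Ptbp3 and Elavl1. Those with the smallest p were also named, up to 4 of each wider list and up to 3 of each marker list. Srrm4, Mir124a-1hg, Rest, Celf2, Mbnl1, Nkx2-1, Nr2f2, Sp8, Prox1, Isl1, Hbb-y, Hbb-bh1 and genes overlapping Ptbp1 and Nova2 were added after their values were seen. Alternatives were other scalings and filters, DESeq2 1.42.0, limma voom (limma 3.58.1), no robust spread, a replicate block, each library left out and, for the paralog balance, no length correction. The result of 1 gene on the list of Ptbp partners is not reported here.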

Additional observations from a re-analysis of the deposited data

How the results depend on the processing

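The 10 regulators under 15 alternatives gave 150 pairs of a gene and an alternative. In 129 pairs the direction and the call were as reported, in 14 a call was lost, in 3 one was gained and in 4 the sign changed. The sign changes fell on genes without a call when 1 library was left out: Ptbp1 ranged from -0.007 to 0.09, Nova1 from -0.084 to 0.116 and Rbfox3 from -0.135 to 0.059. Prdm16 ranged from -0.034 to 0.125. With no filter Elavl2 lost its call (edgeR adjusted p = 0.0558), while Rbfox1 and Rbfox2 kept theirs (edgeR adjusted p = 0.00417 and 0.00222). Leaving out each library gave 0 to 6 called regulators and 1191 to 7556 called genes (464 to 3752 higher, 727 to 3804 lower), with the most calls without KO 1; the cause was not tested.

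With the replicate number as a block, 1 regulator (Rbfox1, edgeR adjusted p = 0.0318) and 2081 genes passed, 862 higher and 1219 lower. Libraries of the same number had deviations that correlated at -0.08, -0.12 and 0.03. With 3 libraries a group this cannot exclude a pairing, and the labels do not say whether the numbers pair the pools. The measures of paralog balance cannot reach a p under 0.05 with 3 libraries a group, whatever the setting; with no length correction the Rbfox1 share differed by -1.22 percentage points. Exon use, and changes smaller than the intervals given, were not resolved at this number of pools.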

Other observations

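Further RNA-binding genes outside the 4 families differed. Of 14 cytoplasmic mRNA-binding genes 3 rose, 3 fell and 8 did not pass (42.9% called, against 20.2% of all tested genes). The genes that rose were those of the Igf2bp family, which bind and stabilize mRNAs in early development. Igf2bp2 had 89.2, 105 and 104 CPM in KO 1 to 3, and 62.7, 58.4 and 57 CPM in WT 1 to 3, with no overlap, and was 1.67-fold higher (edgeR adjusted p = 0.000349). Igf2bp1 was 1.49-fold higher (130 ± 9.79 CPM in KO and 87.4 ± 5.8 CPM in WT, edgeR adjusted p = 0.00114) and Igf2bp3 1.21-fold higher (edgeR adjusted p = 0.0217). Cpeb2, a regulator of poly(A) tails and translation, was 1.32-fold lower (32.6 ± 1.67 CPM in KO and 43.1 ± 3.81 CPM in WT, edgeR adjusted p = 0.00926). With each library left out, 2 or 3 of the 14 rose and 1 to 5 fell, where 6.4% to 41.5% of all tested genes passed.

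Of 26 core spliceosome genes 9 rose, none fell and 17 did not pass (34.6% called, against 20.2% of all tested genes). Their median log2 fold change was 0.15. Those with the smallest p encode small nuclear ribonucleoproteins: Snrpa1 was 1.4-fold, Snrpd1 1.35-fold, Snrpg 1.34-fold and Snrpc 1.22-fold higher (edgeR adjusted p from 0.00223 to 0.019). Without KO 1, 15 rose and 2 fell, where 41.5% of all tested genes passed. Without WT 1, 5 rose (10.8% of all genes passed). Without KO 2, KO 3, WT 2 or WT 3, 1 did (6.4% to 7.62% of all genes passed).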
